A study of Drosophila sechellia and Drosophila melanogaster and Drosophila simulans with 18 samples.

Results

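The cytosolic ribosomal protein genes encode the proteins of the 40S and 60S subunits of the ribosome that translates nuclear mRNAs. They were taken by symbol, as every gene of the authors' deposited tables whose name starts with RpL or RpS followed by a digit or P, together with *sta* (*stubarista*), the gene of the small subunit protein RpSA. This gave 97 entries of the 50294 in the 3 tables, of which *D. melanogaster* had 93 (of 17649 genes in its table). The *D. simulans* table had 3 of its 15372 genes, and 1 of 17273 was in the *D. sechellia* table. The tables give 14821 *D. simulans* and 16978 *D. sechellia* genes a numbered symbol, so the other ribosomal protein genes of these species could not be picked out by name. The mitochondrial ribosomal protein genes (*mRpL* and *mRpS*) were not counted as members.

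Adult females of *D. melanogaster* (strain 14021-0231.36), *D. simulans* (14021-0251.195) and *D. sechellia* (14021-0428.25) were collected 0 to 3 days after eclosion and kept for 24 hr on food with 10 mg/ml L-DOPA or on control food without it. RNA came from 10 pooled whole flies per library, and each of the 6 combinations of species and food had 3 libraries, making 18. The tables hold 1 FPKM value per gene and food, expression corrected for the length of the gene and the size of the library, which the authors combined over the 3 libraries. A value per library was not used here, so no difference below can be set against the spread between libraries, no value has an SD, and no test across libraries was run. Log2 changes are of L-DOPA over control FPKM without a pseudocount. They were taken for genes that reached 1 FPKM on both foods, which are called measured.

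Ribosomal proteins are made in near-equal numbers to build ribosomes, and their mRNAs are among the most abundant in growing cells. In flies most of these genes are haploinsufficient, and loss of a single copy gives the Minute phenotype of slow development and short, thin bristles. Ovaries make large stores of ribosomes for the egg. In whole flies, a change in the number of cells of a type cannot be told apart from a change of RNA per cell.

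In *D. melanogaster*, ribosomal protein genes carried a large part of all FPKM on either food, and their levels on L-DOPA stayed close to those on control food with a small shift upward. Members made up 32.6% of the summed FPKM of the table on L-DOPA and 32.2% on control food. They held 65 of the 100 highest values on L-DOPA and 61 of the 100 highest on control food. On each food, 80 members had an FPKM of at least 1000, out of 199 genes at that level on L-DOPA and 204 on control food. Of the 93 members, 90 were measured. The other 3, *RpL10Aa*, *RpS28a* and *RpS28-like*, were under 0.1 FPKM on L-DOPA and listed at 0 on control food.

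Among the 90 measured members, 71 had a higher FPKM on L-DOPA and 19 a lower one, while 51.1% of all 10229 measured genes were higher. Because members were mostly very abundant, the 126 other genes that averaged 1000 FPKM or more were also used as a background, and 64.3% of these were higher. The median log2 change of the members was 0.08, which is 5.44% in FPKM, against 0.00 for all genes and 0.06 for the other genes of at least 1000 FPKM. The median of the members was thus close to that of other abundant genes. The central 50% of the members lay between 0.02 and 0.17, an interquartile range of 0.15. The same range was 0.19 for all genes and 0.24 for the other genes of at least 1000 FPKM.

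Few members differed much between the foods. A log2 change of at least 0.5 was seen upward in *RpL39* alone, 1 of 90 members against 3.65% of all genes, and downward in *RpL37b* alone, 1 of 90 against 2.20% of all genes. At a limit of 0.25, 9 members were higher, against 8.87% of all genes, and 3 were lower, against 6.41%. The remaining 78 members lay within 0.25 of no change. At a limit of 1, no member was higher (0.909% of all genes) and *RpL37b* was lower (0.577%). Among the 86 members and 1207 genes in all that averaged 100 FPKM or more, *RpL39* passed 0.5 upward (4.06% of those genes) and no member passed it downward (1.82%). The share of members past the limits of 0.25 and 0.5 was close to or below that of all genes. Since the values hold no replicate spread, it was not tested whether any member differed between the foods.

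The large subunit had 54 members, of which 53 were measured, with a median log2 change of 0.06 and 39 members higher on L-DOPA. The small subunit had 39 members, of which 37 were measured, with a median of 0.13 and 32 members higher. With 1 gene kept for each protein, the medians were 0.06 for 47 large subunit genes and 0.13 for 32 small subunit genes, the same to 2 decimals as with the less abundant paralogs. The difference between the subunits was not tested.

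**Figure D1:**
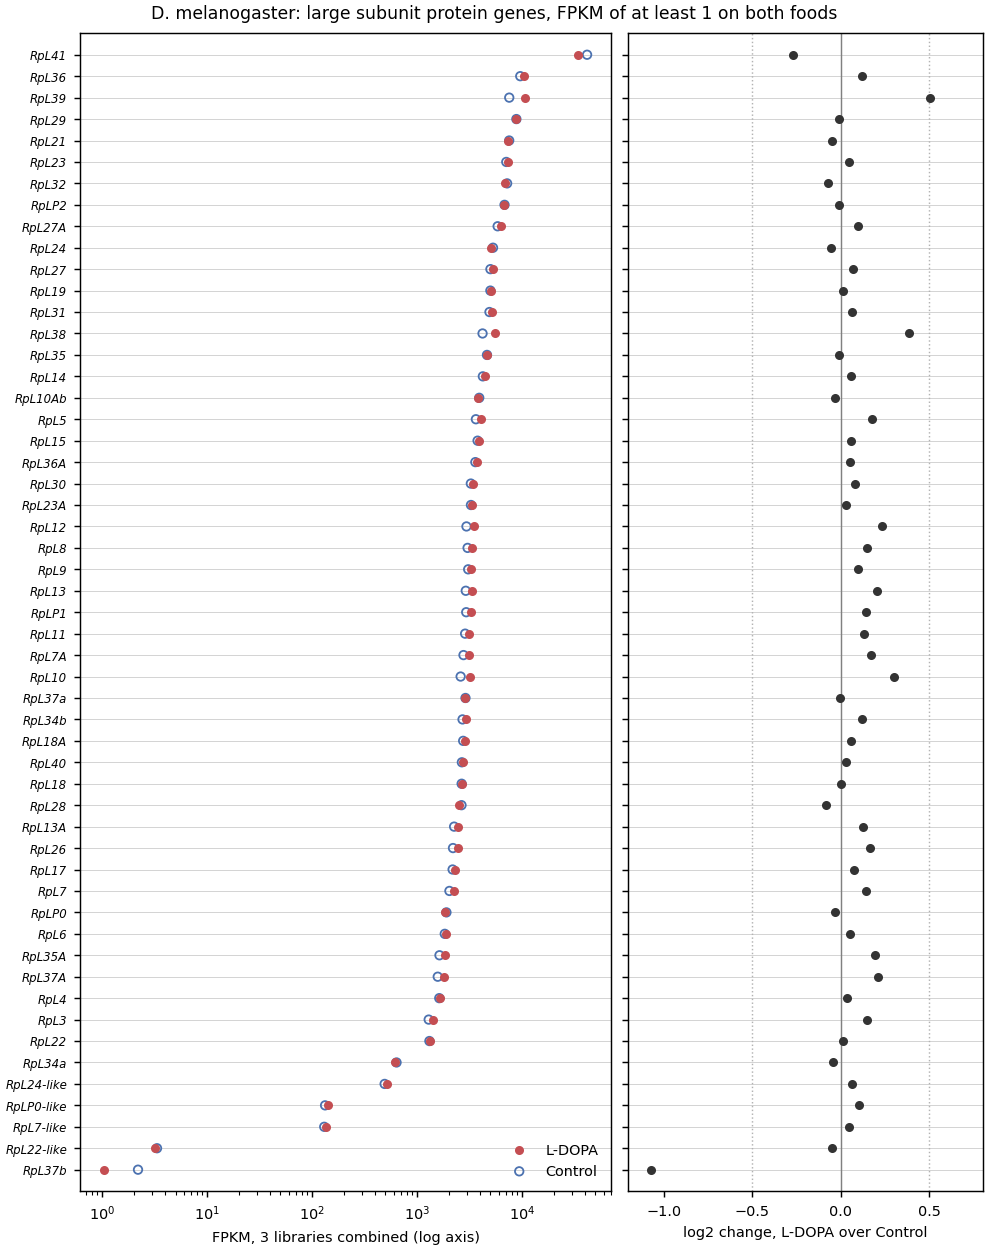
FPKM on L-DOPA (filled) and control food (open) on a log axis, and log2 change of L-DOPA over control, for the 53 measured large subunit members of *D. melanogaster*, ordered by mean FPKM. Dotted lines mark a log2 change of 0.5 in size. *RpL41* tops the levels, and *RpL39* and *RpL37b* are the members at or beyond a dotted line.

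The highest level of the whole *D. melanogaster* table was that of *RpL41*, which encodes the smallest ribosomal protein, 25 residues long. Its FPKM was 34496 on L-DOPA and 41639.9 on control food, a log2 change of -0.27. The gene (FBgn0066084) lies on BDGP6 chromosome 2R from 24903416 to 24903935 on the minus strand, inside the span of the sodium channel gene *NaCP60E* on the other strand, and the authors' table lists it under the span of that locus. Its longest annotated transcript is 320 nt, so the FPKM rests on a short stretch. Without *RpL41*, members held 30.4% of the summed FPKM on L-DOPA and 29.4% on control food.

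The next levels were those of *RpL36*, *RpL39* and *RpL29*. *RpL36* had an FPKM of 10422 on L-DOPA and 9613 on control food, a log2 change of 0.12. *RpL29* had 8756 on L-DOPA and 8828 on control food (-0.01). *RpL21* (7278 on L-DOPA and 7543 on control food, log2 change -0.05) and *RpL23* (7311 on L-DOPA and 7076 on control food, 0.05) followed among large subunit genes. Apart from *RpL39*, which was 41.7% higher on L-DOPA, these genes differed little between foods. The order of members by level was nearly kept, with a Spearman's rho of 0.99 between the foods over 89 members. These points share a library set and gene lengths, and the value is given as a description.

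The largest positive change was that of *RpL39*, whose protein lines the exit tunnel for the nascent peptide. Its FPKM was 10703 on L-DOPA and 7551 on control food, 41.7% higher, with a log2 change of 0.50, above 96.4% of all genes measured. *RpL39* (FBgn0023170, chromosome 2R from 24061853 to 24062431, minus strand) overlaps *RpL12* (FBgn0034968, from 24060378 to 24061860, plus strand) by 8 bp, and the authors' table gives both genes one shared span. *RpL12*, a protein of the stalk base, had 3466 on L-DOPA and 2955 on control food, a log2 change of 0.23. Whether the counting used strand is not given in the sources used here, so reads of these neighbours may be shared at their ends.

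Other large subunit genes with large positive changes were *RpL38* and *RpL10*. *RpL38*, whose mouse counterpart is known for a role in translating Hox mRNAs, had 5478 on L-DOPA and 4204 on control food, a log2 change of 0.38. *RpL10*, the protein that joins the 60S subunit late in its maturation, had 3202 on L-DOPA and 2600.1 on control food, a log2 change of 0.30. Of all measured genes, 94.9% had a lower log2 change than *RpL38* and 93.1% a lower one than *RpL10*.

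The ribosomal stalk recruits the GTPases that drive translation, and its proteins did not shift as one. *RpLP0*, the stalk base protein, had 1857 on L-DOPA and 1904 on control food (log2 change -0.04). *RpLP1* had 3240.3 on L-DOPA and 2939 on control food (0.14), and *RpLP2* had 6767 on L-DOPA and 6809 on control food (-0.01). *RpL5* (0.17) and *RpL11* (0.13), whose proteins enter the ribosome together with 5S rRNA, were both higher. Besides *RpL39*, the exit tunnel genes *RpL4*, *RpL17*, *RpL19*, *RpL23A*, *RpL26*, *RpL31* and *RpL35* had log2 changes between -0.01 and 0.17. These groups by role were put together after the values were seen.

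The lowest changes of large subunit genes, apart from *RpL37b* and *RpL41*, were small. *RpL28* had 2499 on L-DOPA and 2649 on control food (log2 change -0.08). *RpL32*, which codes for the protein long called rp49 and is widely used as a reference gene for fly qPCR, had 6862 on L-DOPA and 7206 on control food (-0.07). *RpL24* had 5088 on L-DOPA and 5289 on control food (-0.06).

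**Figure D2:**
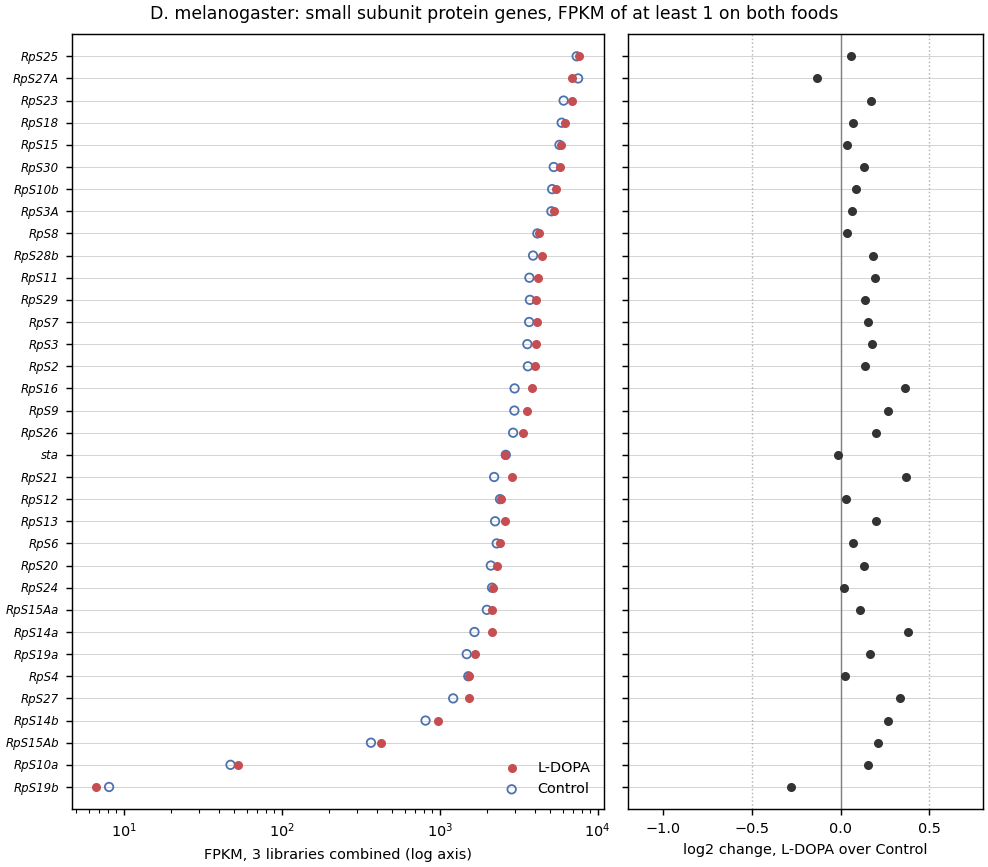
FPKM on L-DOPA (filled) and control food (open) on a log axis, and log2 change of L-DOPA over control, for 34 of the 37 measured small subunit members of *D. melanogaster*, ordered by mean FPKM. Dotted lines mark a log2 change of 0.5 in size. No member reaches a dotted line, and 31 of the 34 lie above 0.

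In the small subunit, the highest levels were those of *RpS25* and *RpS27A*. *RpS25*, a protein needed by some viral internal ribosome entry sites, had 7677 on L-DOPA and 7370.4 on control food (log2 change 0.06). *RpS27A* had 6855 on L-DOPA and 7527 on control food (-0.13). *RpS27A* and *RpL40* are made as fusions with ubiquitin, and *RpL40* had 2721 on L-DOPA and 2672 on control food (0.03). *RpS30*, fused to a ubiquitin-like protein, had a log2 change of 0.13. The fusion genes did not move in the same direction.

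The largest positive changes of the small subunit were those of *RpS14a*, *RpS21*, *RpS16* and *RpS27*. *RpS14a* had 2158 on L-DOPA and 1661 on control food (log2 change 0.38), and its tandem copy *RpS14b* had 981 on L-DOPA and 814 on control food (0.27). The genes lie 220 bp apart on chromosome X, *RpS14a* (FBgn0004403) from 7933742 to 7934677 and *RpS14b* (FBgn0004404) from 7934898 to 7935792, both on the plus strand, and code for proteins of equal length, 151 residues. Their coding regions are known to be almost the same, so the split of reads between them is uncertain, while both values were higher on L-DOPA. *RpS21*, a gene whose loss makes hematopoietic organs overgrow in flies, had 2853 on L-DOPA and 2213 on control food (0.37). *RpS16* had 3827 on L-DOPA and 2981 on control food (0.36), and *RpS27* had 1535 on L-DOPA and 1218 on control food (0.33). *RpS9*, a protein at the mRNA entry that affects decoding accuracy, had 3574 on L-DOPA and 2973 on control food (0.27).

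The small subunit genes grouped here by role were higher on L-DOPA, like most of the small subunit. *RpS2*, *RpS3*, *RpS9*, *RpS15*, *RpS23* and *RpS30*, whose proteins stand near the mRNA entry and the decoding center, had a median log2 change of 0.16, and 6 of 6 were above 0. *RpS14a*, *RpS14b*, *RpS26* and *RpS28b*, near the mRNA exit, had a median of 0.23, and 4 of 4 were above 0. Among them, *RpS14a* and *RpS14b* are tandem copies. Of all 37 measured small subunit members, 32 were above 0. Both groups were put together after the values were seen, and neither holds every protein near its site. Genes outside them include lower ones, such as *RpS27A* (-0.13) and *sta*. The medians and counts of the groups thus describe the genes listed and not the sites. *RpS6*, the substrate of the growth-controlling S6 kinase, had 2410.3 on L-DOPA and 2297 on control food (0.07). *sta* had 2600.02 on L-DOPA and 2623 on control food (-0.01), and *RpS18* had 6215 on L-DOPA and 5922 on control food (0.07).

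Of the families with more than 1 gene for the same or a related protein, 12 are described here. In 6 of them 1 gene held nearly all of the FPKM. *RpL10Ab* (3821 on L-DOPA and 3910.0 on control food), *RpL37a* (2876 and 2891), *RpL22* (1321 and 1310.4), *RpS10b* (5473 and 5154), *RpS19a* (1665 and 1484) and *RpS28b* (4424 and 3902, L-DOPA before control in each pair) each held at least 99.0% of their family's FPKM on L-DOPA and on control food. Their partners were low beside them in these females. *RpL22-like*, a paralog known from the testis, had 3.21 on L-DOPA and 3.33 on control food. *RpS19b* had 6.67 on L-DOPA and 8.09 on control food (log2 change -0.28), and *RpS10a* had 52.9 on L-DOPA and 47.5 on control food (0.16). *RpS10a* overlaps the gene *tau* and is listed under a span wider than its own. Whether reads of *tau* are in its value was not tested. *RpL37b* had 1.04 on L-DOPA and 2.20 on control food (-1.07), so the largest fold difference of all members was between values near the lower limit used here.

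Other families had a minor gene with a larger share. *RpS14b* held 31.3% of its family on L-DOPA and 32.9% on control food. *RpL34a* held 17.3% of its family on L-DOPA and 19.0% on control food (617 and 637 FPKM, log2 change -0.05), with *RpL34b* at 2947 on L-DOPA and 2711 on control food (0.12). *RpS15Ab* held 16.5% on L-DOPA and 15.6% on control food (425 and 368 FPKM, 0.21), with *RpS15Aa* at 2148 on L-DOPA and 1989 on control food (0.11). Paralogs as close as these could share reads.

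The genes named RpLP0-like, RpL7-like and RpL24-like resemble yeast factors that assemble the 60S subunit and leave before it is mature. *RpLP0-like* had 143 on L-DOPA and 133 on control food (log2 change 0.10). *RpL7-like* had 135 on L-DOPA and 130.5 on control food (0.05), and *RpL24-like* had 513 on L-DOPA and 491 on control food (0.06). Their levels were lower than those of *RpLP0*, *RpL7* (2239 on L-DOPA and 2033 on control food, 0.14) and *RpL24*, of whose families they held 5.68% to 9.16% on L-DOPA and 6.03% to 8.49% on control food.

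**Figure D3:**
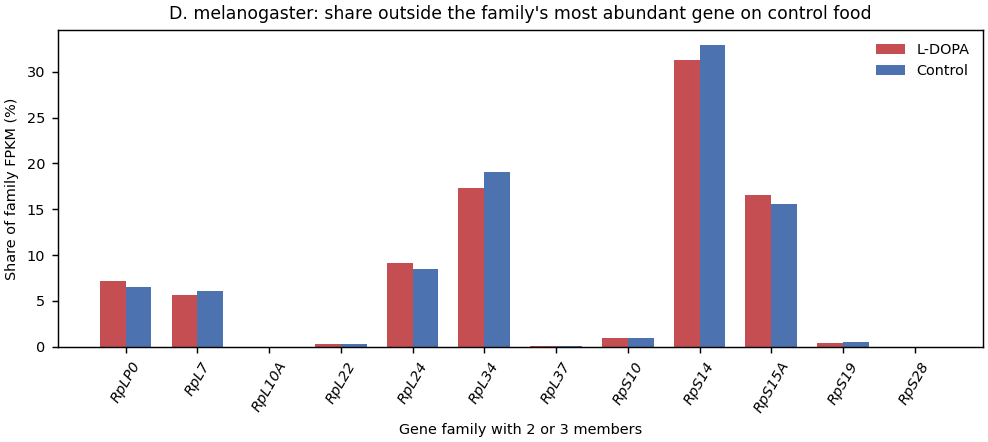
Share of a family's summed FPKM that lay outside its most abundant gene on control food, in percent, on L-DOPA (left bars) and control food (right bars), for 12 families with more than 1 gene in *D. melanogaster*. *RpS14* has the highest bars, at 31.3% on L-DOPA and 32.9% on control food, while 6 families lie near 0.

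The members share features of their genes that the choice by name did not use. Of the 93 *D. melanogaster* members, 92 were found by identifier in the Ensembl annotation of BDGP6, with 15 on chromosome X, 19 on 2L, 21 on 2R, 13 on 3L, 23 on 3R and 1, *RpS3A*, on 4. Their longest coding regions had a median of 156 residues, against 391 residues over 13986 protein-coding genes. A snoRNA gene lay inside 28 of the 92 members (30.4%), against 96 of all 13986 protein-coding genes (0.686%). These 28 genes together held 74 of 269 annotated snoRNA genes. snoRNAs guide the chemical modification of rRNA, and many are cut from the introns of genes for the translation machinery.

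The log2 changes were also set beside these features. The 28 members with a snoRNA gene inside had a median log2 change of 0.08, and the 61 measured members without one had 0.09. Over 89 members, the log2 change had a Spearman's rho of -0.09 with the mean FPKM, 0.11 with transcript length and 0.09 with the number of exons, with library set and gene model shared by all points. The 32 measured members that overlap another gene that is no small RNA had a median of 0.06, and the 57 that do not had 0.12. With coding length, Spearman's rho was -0.11 over the same 89 members. The 11 measured members of at most 100 residues had a median of 0.18 and the 78 longer ones 0.07. That limit of length was chosen after the values were seen.

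The lists of other translation genes in *D. melanogaster* showed small positive medians as well. The 8 elongation factor genes had a median log2 change of 0.07, with 7 higher on L-DOPA, and among them *eEF1alpha1*, which brings aminoacyl-tRNA to the ribosome, had 4832 on L-DOPA and 4592 on control food (0.07). Of 43 initiation factor genes, 36 were measured, with a median of 0.04 and 25 higher. The 73 mitochondrial ribosomal protein genes had a median of 0.06 with 45 higher, and 3 of them passed 0.25 upward. The 21 ribosome assembly genes had a median of 0.07 with 17 higher, including *Nop60B*, the pseudouridine synthase that works with snoRNAs (180 on L-DOPA and 165 on control food, 0.12), and *Fib*, the rRNA methyltransferase fibrillarin (160.5 and 155, 0.05). All 4 measured genes of the RNA polymerase I list, which holds *Tif-IA* besides the RpI genes, were higher, with a median of 0.13. *Tif-IA* had 76.5 on L-DOPA and 73.7 on control food (0.05). The RpI genes were lower in FPKM, and *RpI12* had the largest change (15.8 on L-DOPA and 12.7 on control food, 0.32).

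The growth control genes had the opposite sign. The median log2 change was -0.08, and 11 of 12 genes were lower on L-DOPA, against 5005 of all 10229 measured genes. The list mixes genes that promote growth with genes that restrain it, so a shared sign gives no direction of growth control. *Thor*, which encodes the translation inhibitor 4E-BP, had 576 on L-DOPA and 633 on control food (-0.14), and *Myc*, an activator of ribosome production, had 12.3 on L-DOPA and 13.0 on control food (-0.07). The exception was *Xrp1*, a transcription factor induced when a ribosomal protein gene is lost, at 96.2 on L-DOPA and 86.4 on control food (0.15). The lowest change of the list was that of *Irbp18*, at 74.5 on L-DOPA and 88.1 on control food (-0.24). No gene of the list passed 0.25 in either direction. Muscle markers were higher in 6 of 7, with a median of 0.16 and a summed FPKM of 6249 on L-DOPA and 5747 on control food, and 10 of 12 testis markers were under 1 FPKM on at least one food. Gut markers were higher in 5 of 8, with a median of 0.29 and 4 of 8 higher by at least 0.5, and their summed FPKM was 7391 on L-DOPA and 7623 on control food. Fat body markers were higher in 4 of 6, with a median of 0.08 and 2 of 6 higher by at least 0.5, *Fbp1* (1.55) and *Fbp2* (1.38). Their summed FPKM was 17441 on L-DOPA and 19329 on control food. Most of that sum came from the yolk protein genes *Yp1* (-0.19), *Yp2* (-0.23) and *Yp3* (0.03), so it says little about the other fat body markers. Female germline markers had a median log2 change of -0.07, with 7 of 10 lower on L-DOPA and a summed FPKM of 586 on L-DOPA and 626 on control food. Of 12 markers of ovarian follicle cells, 12 were lower on L-DOPA (median log2 change -0.63) with a summed FPKM of 12205 on L-DOPA and 18216 on control food. The part of tissue composition in the changes of the members was not tested.

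**Figure D4:**
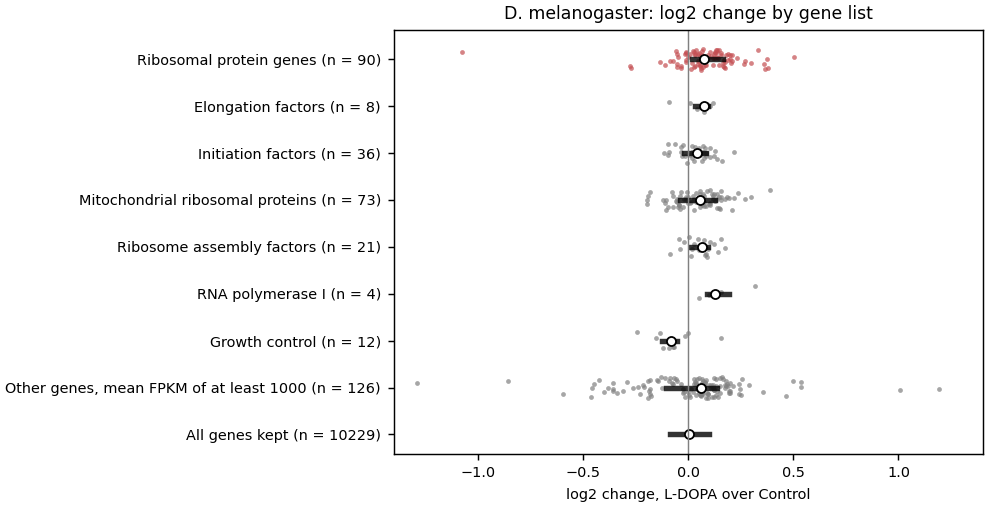
Log2 change of L-DOPA over control in *D. melanogaster* for the 90 measured members, 6 lists of related genes, the 126 other genes that averaged 1000 FPKM or more and all 10229 genes measured. Points are genes, thick lines the central 50% and open circles the median. Members (median 0.08) lie near the other abundant genes (0.06), and the growth control list (-0.08) lies to the left of 0.

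In *D. simulans*, the 3 named members were high and nearly level between foods. *RpL32* (FBgn0040418, ASM75419v3 chromosome 3R from 25217185 to 25218173) had 16020.2 on L-DOPA and 16413 on control food, a log2 change of -0.03. *sta* (FBgn0029243, chromosome X from 1255831 to 1257451) had 8587 on L-DOPA and 8978 on control food (-0.06), and *RpS18* (FBgn0064360, chromosome 2R from 16686807 to 16687694) had 8479 on L-DOPA and 8911 on control food (-0.07). All 3 were lower on L-DOPA, as were 65.2% of the 9249 *D. simulans* genes measured, whose median was -0.08. Relative to that median the changes were 0.05, 0.02 and 0.01. None passed 0.5, against 3.18% of all genes higher and 3.92% lower, and none passed 0.25, against 9.47% higher and 21.9% lower. Per the study's own description, mapped reads were fewer in each *D. simulans* library from L-DOPA than in any from control food, and the part of depth in these values was not tested.

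In *D. sechellia*, *RpS18* was the member named in the table and was lower on L-DOPA. The gene (FBgn0064375, dsec_caf1 scaffold_1 from 13717737 to 13718391) had an FPKM of 3585 on L-DOPA and 5076 on control food, 29.4% lower, with a log2 change of -0.50. A change of at least 0.5 downward was found for 14.7% of the 11560 genes measured in this species, and of at least 1 downward, which *RpS18* did not reach, for 5.63%. The median of all genes measured was 0.10, with 58.1% higher on L-DOPA, and *RpS18* lay above 14.6% of them. The 304 other genes that averaged 1000 FPKM or more had a median of -0.23. *RpS18* lay above 29.3% of these 304 genes and within their central 50%, which ran from -0.58 to 0.08. Small RNA genes also stood low in this species, with a median of -3.16. Of 216 measured, 191 were lower by at least 0.25, against 25.7% of all genes. The part of this in the value of *RpS18* was not tested.

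*RpS18* is thus the single member with values in all 3 species, with a log2 change of 0.07 in *D. melanogaster*, of -0.07 for *D. simulans* and of -0.50 for *D. sechellia*. In each species it lay within the central 50% of the other genes that averaged 1000 FPKM or more, which ran from -0.10 to 0.14 in *D. melanogaster* and from -0.16 to 0.13 in *D. simulans*. *RpL32* had -0.07 in *D. melanogaster* and -0.03 in *D. simulans*, and *sta* had -0.01 and -0.06. The tables were normalised separately, so levels were not compared between species, and the difference in response between species was not tested.

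**Figure D5:**
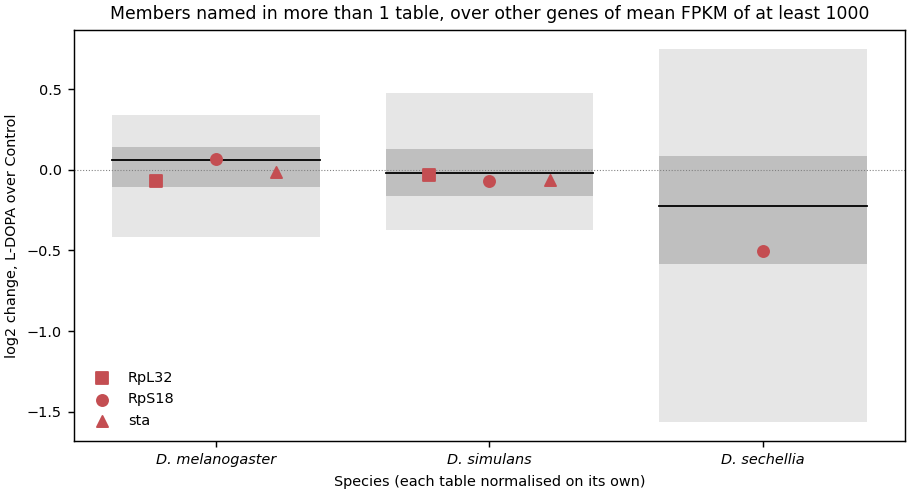
Log2 change of L-DOPA over control for *RpL32*, *RpS18* and *sta* in each species that names them. Light bands hold the central 90% and dark bands the central 50% of other genes that averaged 1000 FPKM or more, with the median as a line. *RpS18* at -0.50 in *D. sechellia* lies inside a dark band that is wider and lower than in the other species.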

How the data were processed

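RNA from whole females was sequenced by the authors as single-end reads from mRNA-selected TruSeq libraries. Per the study's methods, reads were checked with FastQC, aligned untrimmed with Bowtie2 (genomes BDGP6, ASM75419v3 and dsec_caf1 by species) and quantified with Cuffdiff using geometric normalization and gene length correction. Bowtie2 does not align reads across introns, so reads over exon junctions can be missing from genes with introns. Tool versions are not given in the sources used here. The authors' deposited FPKM values are 1 per gene and food, combined over 3 libraries. The tables also hold the authors' log2 fold changes, test statistics, p-values and q-values, which were not used. Because the values are combined over libraries, the spread between libraries, and so the precision of a value, is unknown. Read totals per library are given by the study and were not used in any value. By these totals, an L-DOPA library of *D. melanogaster* had the most mapped reads of all libraries. In *D. sechellia*, each L-DOPA library had a lower share of reads mapped than any control library. The part of these differences in the values was not tested.

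Samples were grouped by title into species and food. From the FPKM, log2 changes, counts past a log2 limit of 0.5 and medians were computed, each beside the same over all genes that reached 1 FPKM on both foods. No count model and no test was run. The members and gene lists were chosen with earlier results of these data known, and role groups after the values were seen. The genes named are the 10 highest members, the 10 largest changes in each direction, every paralog, *RpLP0*, *RpLP1*, *RpLP2*, *RpS6*, *RpL40*, *RpS27A*, *sta*, and every member of the *D. simulans* and *D. sechellia* tables with its *D. melanogaster* counterpart. Members that this rule gives but the text does not name, 3 in all, are not reported here by name. Genes outside these named in the text were chosen after their values were seen. Coordinates of *D. melanogaster* genes are from the Ensembl annotation of BDGP6, release 115, and those of the other species are the tables' starts plus 1, since 76 of 92 *D. melanogaster* members then match. Alternatives were a pseudocount, centring, other FPKM minimums and limits, 1 gene per protein and other backgrounds. The log2, median and counting steps were run on simulated FPKM pairs with set shifts and no noise, which checks only the arithmetic. Python 3.11.15, numpy 2.4.6, pandas 2.3.3, scipy 1.17.1 and matplotlib 3.10.9 were used.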

Additional observations from a re-analysis of the deposited data

How the results depend on the processing

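The median log2 change of the *D. melanogaster* members kept its sign and moved by less than 0.1 under every alternative tried, between 0.07 after centring on the median gene and 0.12 for members that overlap no other gene, an alternative chosen after seeing the data. In *D. simulans* the median over 3 members was -0.06 and became 0.017 after centring on the median gene. In *D. sechellia* the value of *RpS18* lay between -0.60 after centring and -0.50. The count of *D. melanogaster* members past the limit was 2. Over the alternatives that moved it, it was 12 at a log2 limit of 0.25, 1 at a limit of 1, 1 after centring, where *RpL39* fell just under the limit, and 1 among members that averaged 100 FPKM or more, where *RpL37b* was not included. In *D. sechellia* it was 1, and 0 at a limit of 1. With a pseudocount of 1 the counts were unchanged. The share of all genes past the limit in *D. melanogaster* was 5.85%, 4.75% without small RNA genes and 6.35% among other genes that averaged 1000 FPKM or more, a background chosen after seeing the data. No paired analysis was possible because the tables hold 1 combined value per food, and for the same reason no library could be left out.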

Other observations

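The members with the shortest proteins varied more than the others. Among members that code for at most 100 residues, 11 were measured, and their log2 changes had a median of 0.18 and an interquartile range of 0.36. They ran from -1.07 (*RpL37b*) to 0.50 (*RpL39*), and the values of *RpL37b* were near the lower limit of FPKM used here. The 78 measured members with longer proteins had a median of 0.07 and an interquartile range of 0.13. The short group held 4 of the 9 members higher by at least 0.25, namely *RpL39*, *RpL38*, *RpS21* and *RpS27*, and 2 of the 3 lower by at least 0.25, *RpL41* and *RpL37b*. This limit of length was chosen after the values were seen, and the difference was not tested.

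Of the other translation genes, the *D. simulans* table names 3. *Thor* had an FPKM of 1336 on L-DOPA and 1019.5 on control food, a log2 change of 0.39, against -0.14 in *D. melanogaster*. *pit*, an RNA helicase of ribosome assembly, had 30.0 on L-DOPA and 37.3 on control food (-0.31), against 0.17 in *D. melanogaster*. *mRpS11* had 49.8 on L-DOPA and 53.8 on control food (-0.11), against 0.03 in *D. melanogaster*. All 3 thus had opposite signs in the 2 species, and no test of that difference was possible on combined values. Of all measured *D. simulans* genes, 65.2% were lower on L-DOPA, 21.9% were lower by at least 0.25 and 9.47% were higher by at least 0.25.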
